A study of Drosophila melanogaster with 2 samples.

Results

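The vacuolar proton pump (V-ATPase) genes of Drosophila melanogaster were examined for peaks of E(spl)mβ-HLH, a transcriptional repressor with a basic helix-loop-helix domain, made in response to Notch signalling. The members were all protein-coding genes of the Ensembl annotation whose symbol starts with Vha, which gave 33 genes of 13945. They comprised 13 genes for subunits of the V1 sector, 18 for subunits of the V0 sector and 2 for accessory proteins. By symbol, 14 carried no number or the number 1, 15 carried a number of 2 or higher, and the 4 VhaM9.7 genes carried letters.

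Peaks came from chromatin immunoprecipitation followed by sequencing in whole embryos aged 0 to 24 hours, male and female pooled. The line carries a transgene that makes E(spl)mβ-HLH joined at its C terminus to GFP, and the labels name neither its promoter nor the cells in which it is made. A single group of 2 biological replicates, labelled 1 and 3, was available and no second condition, so differences between conditions could not be tested. Both samples' descriptions speak of an input control, while the assay title and antibody field speak of an immunoprecipitation of the factor, and every value here carries that conflict. Since whole embryos were used, a peak in few cells cannot be told apart from a weaker peak in many.

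The pump is a rotary machine. Its V1 sector in the cytoplasm hydrolyses ATP, and its V0 sector in the membrane moves protons into lysosomes, endosomes and secretory vesicles or across the apical membrane of epithelia such as the Malpighian tubule. Many fly subunits are encoded by several paralogues, of which usually a single gene per subunit is widely expressed and the others are often restricted to the testis or another tissue. In the fly, the basic helix-loop-helix factor Mitf is known to activate pump subunit genes.

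Promoters that hold words described further on are given here before the values, in the direction of transcription, from the dm6 build. Words that were searched for are in capitals, except CACNAG and GAGAG, which are frequent and were left in lower case. Vha55, Vha13, VhaM9.7-b and VhaSFD had a reproducible summit, and their windows run from 150 bp before a transcription start site (TSS) to 49 bp after it. Those windows are chr3R:12627665-12627864 (minus strand, at an internal start of the gene), chr3R:19644337-19644536 (minus strand), chr3L:21539712-21539911 (plus strand) and chr2L:16727777-16727976 (minus strand). Vha55 holds TCATGTGA, CACGTG and, as its complement, CACGCG. Vha13 holds TCATATGA and VhaM9.7-b holds TCATGTGA. VhaSFD holds TATCGATA, and neither TCATATGA nor TCATGTGA.
Vha55: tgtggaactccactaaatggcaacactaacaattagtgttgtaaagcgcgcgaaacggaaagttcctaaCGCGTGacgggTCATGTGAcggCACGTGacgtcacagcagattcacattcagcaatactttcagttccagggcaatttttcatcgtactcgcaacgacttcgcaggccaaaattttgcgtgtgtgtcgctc
Vha13: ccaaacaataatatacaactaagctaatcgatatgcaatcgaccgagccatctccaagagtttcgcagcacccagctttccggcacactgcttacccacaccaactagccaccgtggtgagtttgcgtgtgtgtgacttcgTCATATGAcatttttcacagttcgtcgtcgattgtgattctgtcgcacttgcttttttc
VhaM9.7-b: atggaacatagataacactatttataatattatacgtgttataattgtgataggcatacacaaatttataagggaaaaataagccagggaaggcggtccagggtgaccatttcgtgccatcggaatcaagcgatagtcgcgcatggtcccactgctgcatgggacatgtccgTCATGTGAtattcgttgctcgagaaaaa
VhaSFD: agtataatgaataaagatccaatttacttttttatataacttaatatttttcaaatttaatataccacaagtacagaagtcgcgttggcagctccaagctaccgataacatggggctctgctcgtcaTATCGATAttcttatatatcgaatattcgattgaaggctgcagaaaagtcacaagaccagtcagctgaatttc

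The next 3 starts belong to subunits of the widely expressed pump whose summits were listed only in the pooled peaks, and show that the same words lie there too. They span 50 bp on each side of the TSS of Vha26 (chr3R:5591713-5591813, plus strand), VhaAC39-1 (chrX:3880698-3880798, plus strand) and VhaPPA1-1 (chr3R:14904011-14904111, minus strand).
Vha26: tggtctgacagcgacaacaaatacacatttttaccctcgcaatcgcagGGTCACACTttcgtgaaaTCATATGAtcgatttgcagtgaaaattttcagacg
VhaAC39-1: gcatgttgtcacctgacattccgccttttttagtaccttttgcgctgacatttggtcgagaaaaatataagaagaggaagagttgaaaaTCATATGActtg
VhaPPA1-1: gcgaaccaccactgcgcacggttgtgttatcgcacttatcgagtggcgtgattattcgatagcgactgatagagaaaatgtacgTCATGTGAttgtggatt

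The A subunit gives the contrast between paralogues. Vha68-2 (chr2L:12974072-12974371, plus strand) had a reproducible summit, and Vha68-1 (chr2L:13004058-13004357, minus strand) had no listed summit. Both windows run from 250 bp before the most upstream TSS to 49 bp after it, and the capitals in Vha68-2 are the complement of GGTCACACT.
Vha68-2: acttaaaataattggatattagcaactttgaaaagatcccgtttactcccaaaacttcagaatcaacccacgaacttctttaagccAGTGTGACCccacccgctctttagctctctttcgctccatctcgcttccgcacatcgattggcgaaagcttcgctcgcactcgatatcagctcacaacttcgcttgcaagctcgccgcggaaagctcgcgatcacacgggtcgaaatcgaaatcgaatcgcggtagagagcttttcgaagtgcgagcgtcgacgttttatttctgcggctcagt
Vha68-1: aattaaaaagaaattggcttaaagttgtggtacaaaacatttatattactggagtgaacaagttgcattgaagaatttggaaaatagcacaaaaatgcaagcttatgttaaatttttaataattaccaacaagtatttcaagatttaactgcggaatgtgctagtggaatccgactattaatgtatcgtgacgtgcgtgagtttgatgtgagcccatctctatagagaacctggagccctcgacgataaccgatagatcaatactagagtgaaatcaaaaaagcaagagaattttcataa

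The reproducible list, which the authors thresholded on the irreproducible discovery rate, held 5744 peaks with signals from 183.6 to 5401 and a median of 293.5. The pooled list and each replicate's list held 30000 peaks, the weak ones included. A gene was counted when a summit lay within 1000 bp of any of its TSSs. Signals are the authors' values for a peak within its own list and were not scaled between lists, so each is given with its rank in that list.

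A reproducible summit lay near 11 of the 33 Vha genes, or 33.3%, against 27.9% of all protein-coding genes (3888 of 13945). In the pooled list the count was 21 of 33, or 63.6%, against 48.3% of all genes (6733). With the strongest peaks of replicate 3 alone, without replicate 1, the first share was 24.2% against 28.8% of all genes, below it rather than above. With the whole replicate 3 list in place of the pooled one, the second was 54.5% against 50.3%. No difference between the family and all genes is read from these shares. The 11 genes had a median strongest signal of 470.2, against 329.7 over the 3888 genes. The median of the 11 counts Vha14-1, the highest at 861.7, whose assignment is uncertain, and was not taken without it. No test was made over the genes, which were chosen with earlier results known.

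The 33 genes were also counted by their numbering, to be set beside 27.9% of all genes with a reproducible summit and 48.3% with a pooled one. The same count for other numbered families is given under the other observations. Of the 14 genes with no number or the number 1, 7 had a reproducible summit and 11 a pooled one. Of the 15 numbered 2 or higher, 2 had a reproducible summit, namely Vha68-2 and Vha100-2, and 8 had a pooled one. Of the 4 lettered VhaM9.7 genes, 2 had a reproducible summit, and the same 2 genes had the pooled ones.

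The numbers do not mark expression. Vha68-2, Vha100-2 and VhaM9.7-b are the members known from work on fly epithelia as the widely used A, a and e subunits. A set with these 3 genes in place of Vha68-1 and Vha100-1 held 15 genes, of which 10 had a reproducible summit and 13 a pooled one. Of the other 18 Vha genes, 1 had a reproducible summit (VhaM9.7-c) and 8 a pooled one. This division was drawn with the earlier results in view, so it describes the lists and is no independent evidence. By sector, 7 of 13 V1 genes (53.8%), 4 of 18 V0 genes (22.2%) and 0 of 2 accessory genes had a reproducible summit, against 27.9% of all genes. A smaller part of the V0 genes than of the V1 genes belonged to the widely used set. No difference between the sectors is read from these counts.

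**Figure D1:**
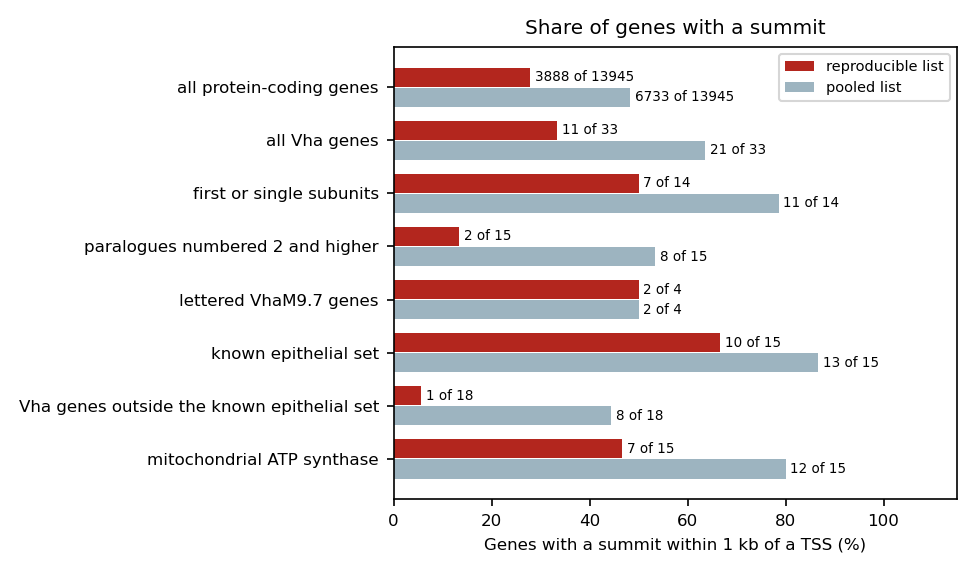
Share of genes with a summit within 1000 bp of a TSS (percent, horizontal axis) in the reproducible list (red) and the pooled list (grey) for all protein-coding genes, the Vha genes and their divisions, and the mitochondrial ATP synthase. The counts stand beside the bars, and the widely used set, labelled known epithelial set, reached 10 of 15 and 13 of 15.

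In the V1 sector, the catalytic hexamer is made of A and B subunits. Vha68-2, a gene for the catalytic A subunit, had a reproducible summit in chr2L:12974190-12974337, 16 bp upstream of its TSS with a pooled signal of 229.9 (rank 4226), 132.8 in replicate 1 (rank 4455) and 100.1 in replicate 3 (rank 4522). Vha55, the only gene for the B subunit, had a summit in chr3R:12627616-12628059, 27 bp downstream of a TSS with 329.2 in the pooled list (rank 2340), 145.8 in replicate 1 (rank 3853) and 191.8 in replicate 3 (rank 1378). Both were present in each replicate, and Vha55 stood higher in the ranking of replicate 3 than in that of replicate 1. The other A genes had little or nothing. Vha68-3 had a pooled summit of 41.5 (rank 26640) lying 340 bp upstream of its TSS. The strongest in replicate 1, 768 bp upstream, had 27.5 (rank 26253), and replicate 3 listed none within 1000 bp. Vha68-1, whose protein is 91.9% identical to that of Vha68-2, had no listed summit, and the nearest pooled one lay 18021 bp away.

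The central stalk, which turns with the rotor, is made of D and F subunits. Vha36-1, for subunit D, had a summit in chr2R:15541231-15541557, 22 bp upstream of its TSS with 507.9 in the pooled list (rank 1032), 283.8 in replicate 1 (rank 1136) and 227.2 in replicate 3 (rank 975). The same summit lay 50 bp upstream of the divergent gene CG8187. Its paralogues Vha36-2 and Vha36-3, with 26.5% and 83.9% protein identity to Vha36-1, had no listed summit within 1000 bp. The highest signal of the family, 861.7 (rank 364) in chr2R:15678935-15679426, was assigned to Vha14-1, for subunit F. It was also the least certain assignment, because the summit lay 866 bp downstream of the TSS and 208 bp beyond the 3′ end of the gene, and 262 bp upstream of Gmppa, a gene named for a GDP-mannose pyrophosphorylase subunit. Replicate 1 listed it with 515.4 (rank 370), and replicate 3 listed no overlapping peak among its 30000. Vha14-2, with 37.4% protein identity to Vha14-1, had a pooled summit of 89.0 (rank 13162) that lay 809 bp upstream of its TSS.

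The peripheral stalk and the subunits that couple V1 to V0 were mostly covered. Vha44, the only gene for subunit C, which governs assembly of V1 onto V0, had a summit in chr2R:16336517-16336884, 48 bp upstream of a TSS with 483.0 in the pooled list (rank 1120), 268.2 in replicate 1 (rank 1286) and 216.3 in replicate 3 (rank 1083). Vha13, the only gene for subunit G, had a summit in chr3R:19644226-19644479, 45 bp downstream of its TSS with 470.3 in the pooled list (rank 1177), 231.5 in replicate 1 (rank 1729) and 239.0 in replicate 3 (rank 876). Both were among the 5744 strongest peaks of each replicate. VhaSFD, the only gene for the regulatory subunit H, had a summit in chr2L:16727675-16727991, 11 bp upstream of its TSS with 257.8 in the pooled list (rank 3536), 186.3 in replicate 1 (rank 2552) and 76.6 in replicate 3 (rank 6620). Of Vha44, Vha13 and VhaSFD it was the lowest in every list, and it fell outside the 5744 strongest of replicate 3.

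Vha26, the only gene for subunit E, was the V1 subunit of the widely used set that missed the reproducible list. Its strongest pooled summit had a signal of 162.6 (rank 6697) and lay 53 bp downstream of the TSS. Its strongest peaks ranked 5140 in replicate 1 and 5013 in replicate 3, with signals of 121.1 and 93.8, but the first lay 53 bp and the second 563 bp downstream of the TSS. Vha26 was 1 of 59 genes with a summit among the 5744 strongest of both replicates and none in the reproducible list.

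**Figure D2:**
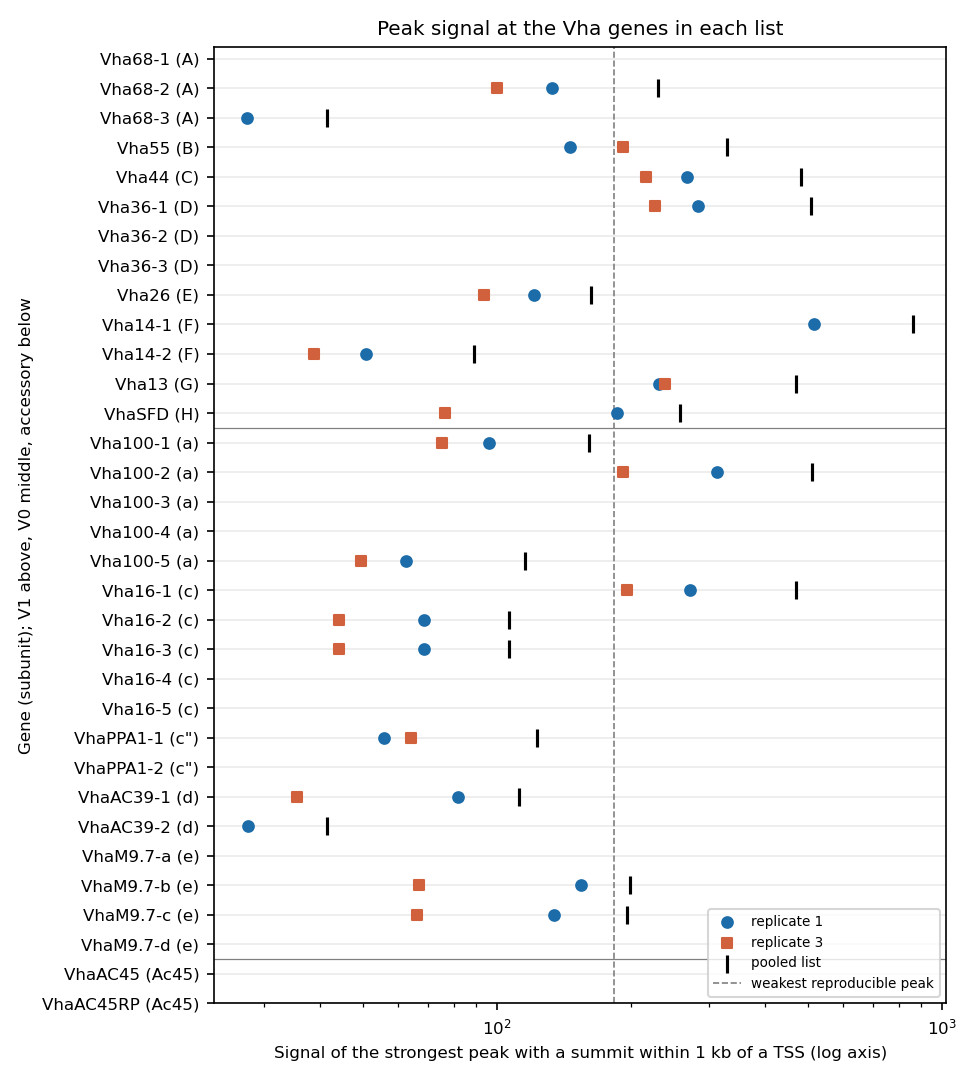
Signal (horizontal log axis) of the strongest peak with a summit within 1000 bp of a TSS for each Vha gene in replicate 1 (circles), replicate 3 (squares) and the pooled list (bars), with the subunit in brackets. The dashed line marks the weakest reproducible peak at a pooled signal of 183.6, the 12 genes with no listed summit have no mark, and lists are not scaled to each other.

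In the V0 sector, subunit a forms the proton path beside the rotating c ring and is known to direct the pump to its membrane. Vha100-2 was the V0 gene with the highest signal and had 3 reproducible summits. The strongest, in chr3R:18397040-18397788 and 319 bp upstream of an internal TSS, had 512.3 in the pooled list (rank 1017), 313.0 in replicate 1 (rank 940) and 192.5 in replicate 3 (rank 1361). A separate peak in chr3R:18398919-18399459, with its summit 49 bp downstream of the most upstream TSS had 354.7 in the pooled list (rank 2035), 187.1 in replicate 1 (rank 2531) and 168.7 in replicate 3 (rank 1772). The weakest of the 3, with 194.5 (rank 5326), shared the span of the strongest peak. Every one of them was also within 1000 bp of a TSS of Vti1b, a gene named for a SNARE protein of vesicle fusion.

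The other 4 genes for subunit a had no reproducible summit. Vha100-1, known for its role in neurons, had pooled summits of 161.2 (rank 6789) and 137.1 (rank 8290), at 4 and 139 bp downstream of a TSS. Its strongest replicate values were 96.2 in replicate 1 (rank 6993) and 75.3 in replicate 3 (rank 6778). Vha100-5 had 115.7 in the pooled list (rank 10061), 62.4 in replicate 1 (rank 11642) and 49.6 in replicate 3 (rank 11214). Both genes were thus listed in each replicate at lower ranks than Vha100-2. Vha100-3 and Vha100-4 had no listed summit within 1000 bp, and their proteins were 35.0% and 64.7% identical to that of Vha100-2.

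The c ring carries the protons and is made of c and c″ proteolipids. Vha16-1, for subunit c, had a summit in chr2R:6632837-6633320, 7 bp downstream of a TSS with 470.2 in the pooled list (rank 1180), 271.3 in replicate 1 (rank 1250) and 196.5 in replicate 3 (rank 1302). It was the only Vha gene with reproducible summits inside the gene and over 1000 bp from its own TSSs. These had pooled signals of 419.0 and 183.8 and lay 3908 and 3709 bp downstream of a TSS. Vha16-2 and Vha16-3 shared a summit between them, with 106.5 in the pooled list (rank 10997), 68.5 in replicate 1 (rank 10514) and 44.1 in replicate 3 (rank 12829). In the pooled list it lay 782 bp downstream of a TSS of Vha16-3 and 790 bp upstream of that of Vha16-2, and in replicate 3 it lay 926 and 646 bp from them. Vha16-4 and Vha16-5 had no listed summit within 1000 bp. Protein identity to Vha16-1 was 82.5% for Vha16-3, 68.1% for Vha16-2, 67.3% for Vha16-4 and 57.0% for Vha16-5.

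For subunit c″, VhaPPA1-1 had a summit 131 bp upstream of its TSS with 122.9 in the pooled list (rank 9381), 55.7 in replicate 1 (rank 13212) and 64.3 in replicate 3 (rank 8276). VhaPPA1-2 had no listed summit within 1000 bp. Subunit d joins the rotor stalk to the ring, and VhaAC39-1 had 112.0 in the pooled list (rank 10423), 81.9 in replicate 1 (rank 8514) and 35.7 in replicate 3 (rank 16113). Its summits lay 93 bp, 90 bp and 267 bp downstream of the TSS in these lists. VhaAC39-2 had 41.6 in the pooled list (rank 26601), 27.6 in replicate 1 (rank 26158) and no listed summit in replicate 3. None of these genes reached the reproducible list, although VhaPPA1-1 and VhaAC39-1 belong to the widely used set.

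The VhaM9.7 genes encode the small e subunit of V0. VhaM9.7-b had a summit in chr3L:21539725-21539884, 61 bp upstream of its TSS with 199.2 in the pooled list (rank 5164), and the overlapping peaks had 154.6 in replicate 1 (rank 3502) and 67.0 in replicate 3 (rank 7860). That replicate 1 summit lay 348 bp upstream of the TSS, so its value is not of the same summit. A further replicate 1 summit, of rank 3769, lay 67 bp upstream. VhaM9.7-c had a summit in chr3L:4186635-4187098, 2 bp upstream of its TSS with 196.5 in the pooled list (rank 5254), 134.6 in replicate 1 (rank 4359) and 66.4 in replicate 3 (rank 7960). Both stood just inside the reproducible list, whose weakest signal was 183.6, and both fell outside the 5744 strongest of replicate 3. The strongest Vha gene outside it was Vha26. VhaM9.7-a and VhaM9.7-d had no listed summit, and their proteins were 43.3% and 35.4% identical to that of VhaM9.7-b. VhaAC45 and VhaAC45RP, genes for the accessory Ac45 protein and a protein related to it, had none either.

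The genes with only pooled summits numbered 10, with signals from 41.5 to 162.6, a median of 109.3 and ranks from 6697 to 26640. The genes with no listed summit numbered 12. Among them, 2 belonged to the widely used set, VhaAC45 and VhaAC45RP, the latter counted there because its symbol has no number. An unlisted summit does not show that no protein was bound, since the lists end at a fixed length and their depth is unknown.

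Summits at the Vha genes lay close to the start. The strongest reproducible summit was a median of 27 bp from the nearest TSS over the 11 genes, against 137 bp over the 3888 genes. It was within 100 bp at 9 of the 11, or 81.8%, against 40.4% of all genes. The exceptions were Vha100-2 and Vha14-1. Such closeness was also seen outside the family. At the 7 mitochondrial ATP synthase genes with a reproducible summit, the distances were 9, 10, 41, 64, 66, 758 and 812 bp. Of the 13 reproducible peaks at Vha genes, 4 were near no other gene (those of Vha16-1, Vha68-2, VhaM9.7-c and VhaSFD), against 2392 of 3731 over all promoter peaks. The others also lay within 1000 bp of a TSS of CG8187, COX8, Gmppa, Hmgs, Nup58, Snx3 or Vti1b. Such peaks cannot be assigned to a single gene.

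**Figure D3:**
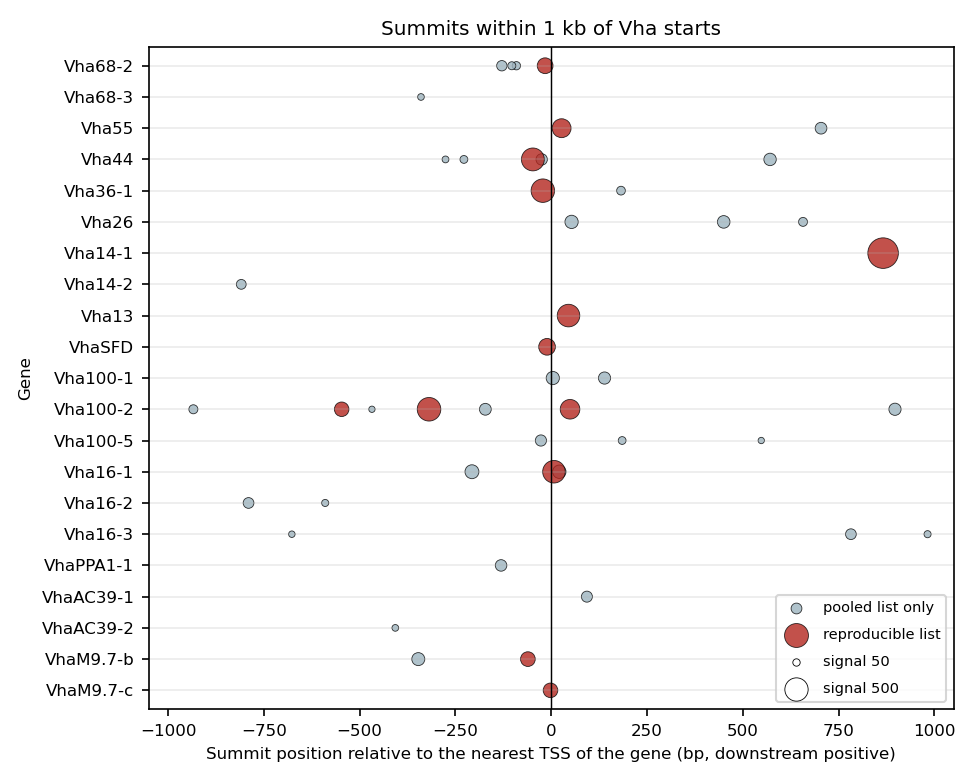
Position of every pooled summit within 1000 bp of a Vha start relative to that gene's nearest TSS (bp, downstream positive), with area proportional to pooled signal. Red summits are in the reproducible list, and 9 of the 11 genes with a red summit have their strongest within 100 bp of the TSS.

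Agreement between the replicates at the Vha genes rests on 13 peaks. Of these, 9 overlapped 1 of the 5744 strongest peaks of both replicates, or 69.2%, against 79.4% of all 5744 peaks and 82.0% of the 3731 peaks at promoters. All 13 overlapped a peak among the strongest of replicate 1, and 4 overlapped none of those of replicate 3 (Vha14-1, VhaM9.7-b, VhaM9.7-c and VhaSFD). The weakest Vha100-2 peak, of pooled rank 5326, counted in both through the span it shares with the strongest. The replicate summits nearest to its own, 544 and 548 bp upstream of the TSS, ranked 5914 in replicate 1 and 8067 in replicate 3. Over all 5744 peaks, 11.9% were missing from the strongest of replicate 3 and 9.77% from those of replicate 1. Only the Vha14-1 peak overlapped no listed peak of replicate 3, as did 51 of all 5744. Without replicate 1, using the strongest of replicate 3 alone, the count of Vha genes was 8, or 24.2%, against 28.8% of all genes (4011), with Vha26 gained and those 4 lost.

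Several Vha paralogues are neighbours. Vha68-2 and Vha68-3 lie in tandem 178 bp apart, Vha100-2 and Vha100-4 lie 517 bp apart, and Vha16-3 and Vha16-2 lie 985 bp apart. VhaPPA1-1 and VhaPPA1-2 lie 2052 bp apart, with the ribosomal protein gene RpS5b between them. In the Vha68 and Vha100 pairs the upstream gene had the reproducible summits, and Vha16-3 and Vha16-2 shared their strongest summit. The summit counted for Vha68-3 lay inside Vha68-2, 340 bp before the TSS of Vha68-3. A reproducible summit of 195.2 lay 1605 bp downstream of the TSS of VhaPPA1-2, outside the window.

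**Figure D4:**
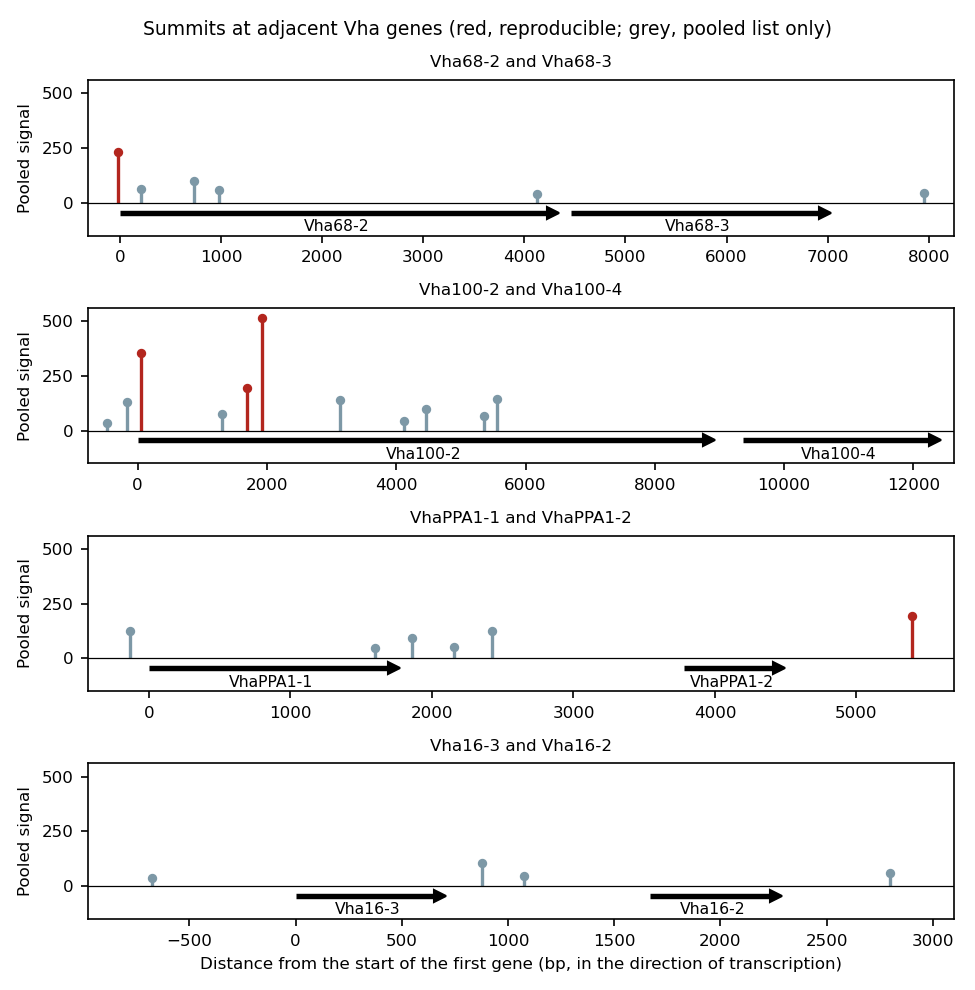
Pooled signal of every summit (vertical axis) along 4 pairs of neighbouring Vha genes, with arrows for the genes in the direction of transcription and distance in bp from the start of the upstream gene. Reproducible summits (red) stand at Vha68-2 and Vha100-2 and none stands within 1000 bp of a start of the other 6 genes.

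The words were sought on both strands within 100 bp of the strongest reproducible summit of the 11 genes. CACGTG, an E-box, was found at 3 (Vha16-1, Vha44 and Vha55), or 27.3%, against 4.07% of the 3731 promoter summits. Within 250 bp it was at the same 3, against 9.01%, and within 50 bp at 2 (Vha44 and Vha55), or 18.2%, against 1.74%. CACGCG, a word known for Hairy and E(spl) proteins though not their only one, was found at 1 (Vha55), or 9.09%, against 8.42%. Within 250 bp it was at 3 (Vha100-2, Vha36-1 and Vha55), or 27.3%, against 17.7%. CACNAG, the N-box, was found at 2 (Vha44 and VhaSFD), or 18.2%, against 24.6%. Within 250 bp it was at 7, or 63.6%, against 49.4%, and within 50 bp at 2, or 18.2%, against 12.4%, so the order of the shares depended on the window. TATCGATA, the word known for DREF, was found at 1 (VhaSFD), against 5.74%. GGTCACACT, known for M1BP, was found at none, against 3.08%, and GAGAG, known for GAGA factor, at 4 (Vha100-2, Vha14-1, Vha44 and Vha68-2), or 36.4%, against 29.3%. Within 250 bp GAGAG was at 54.5% of the 11 against 56.1%, and within 50 bp at 18.2% against 15.3%. A match is only a run of letters and does not tell which factor binds there. No match says only that the letters are not in the window.

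Longer words around the E-box were chosen after these promoters had been read. They were TCACGTGA, TCATGTGA and TCATATGA, the M-box form known for Mitf, on both strands, and TCACGTGA contains CACGTG. In the 300 bp from 250 bp before to 49 bp after any TSS, they were present at 10 of the 33 Vha genes, or 30.3%, against 1.43% of all genes (200 of 13945) and 2.06% of the genes with a reproducible summit. TCACGTGA was at Vha44 and Vha68-2, against 0.201% of all genes. TCATGTGA was at Vha14-1, Vha55, VhaAC45, VhaM9.7-b and VhaPPA1-1, against 0.746%. TCATATGA was at Vha13, Vha26 and VhaAC39-1, against 0.502%.

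All 10 of these genes were in the widely used set of 15, and 0 of the other 18 Vha genes and 0 of 15 mitochondrial ATP synthase genes had such a word. The words were present at 6 of the 11 Vha genes with a reproducible summit and at 4 of the 22 without one (Vha26, VhaAC39-1, VhaAC45 and VhaPPA1-1). That contrast follows the make-up of the 2 groups and was not seen inside the widely used set. There, 6 of the 10 genes with a reproducible summit had a word, and of those without one only VhaAC45RP lacked it. Because the words were picked from these promoters, their share is a description and carries no test. Within 100 bp of the strongest summit they were found at 5 of 11 genes (Vha13, Vha16-1, Vha44, Vha55 and VhaM9.7-b), against 0.858% of promoter summits, the word of Vha16-1 lying just past the end of the promoter window. The distance between word and summit was 4 bp at Vha44, 22 bp at Vha55, 50 bp at Vha13 and 87 bp at VhaM9.7-b. At Vha14-1 it was 861 bp, and at Vha68-2 the word stood at a downstream start, 1001 bp from the summit. VhaAC45 had the word 7 bp upstream of its TSS and no listed summit.

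**Figure D5:**
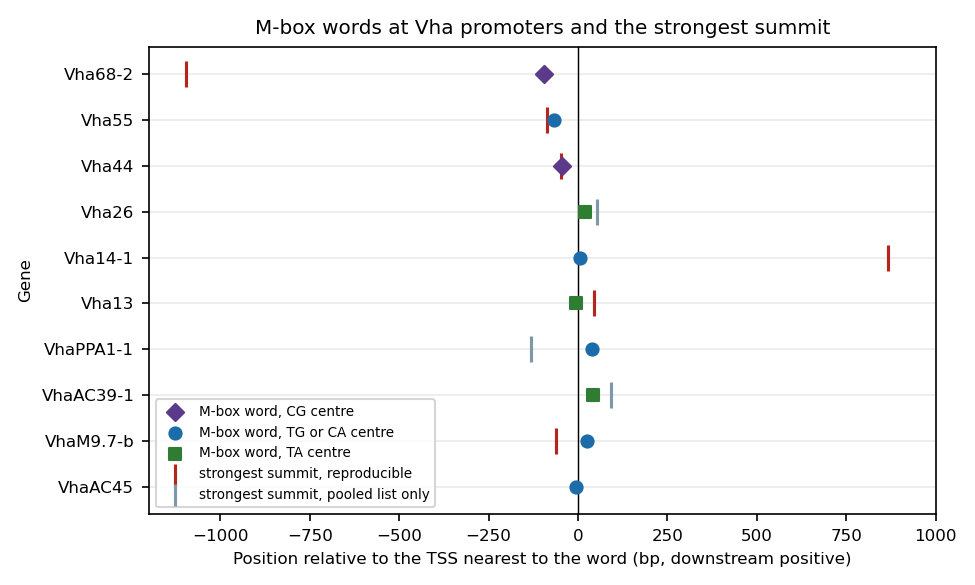
Position of the M-box word (diamonds, circles and squares for its 3 centres) and of the strongest summit (bars, red if reproducible) relative to the TSS nearest to the word, in bp with downstream positive, for the 10 Vha genes with a word. Word and summit lie within 100 bp of each other at 6 genes, and VhaAC45 has a word and no summit.

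Genes that act with the pump were examined as lists. Of 4 genes for assembly and control, 3 had a reproducible summit. The gene mtd, whose mammalian relatives are known to bind the pump, had 874.8 in the pooled list (rank 354), 514.4 in replicate 1 (rank 372) and 358.0 in replicate 3 (rank 381). Mitf had 390.3 in the pooled list (rank 1691), 248.7 in replicate 1 (rank 1513) and 161.4 in replicate 3 (rank 1926). The first 2 summits lay 35 and 37 bp upstream of a TSS, and that of replicate 3 lay 577 bp downstream of a TSS, so the values are not of the same peak. Rbcn-3A, a rabconnectin of the complex that assembles V1 onto V0, had 185.8 in the pooled list (rank 5649), close to the weakest reproducible peak. Its partner Rbcn-3B was listed only in the pooled peaks, at 155.3 (rank 7102).

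The lists of the lysosome stood nearer to the 27.9% of all genes. Among genes for nutrient sensing at the lysosome, 3 of 8 had a reproducible summit, the strongest at Lamtor5 with 296.9. Among lysosomal membrane proteins and hydrolases it was 3 of 11, the strongest at CtsL1, a cathepsin, with 420.3. Among genes of the HOPS tethering complex it was 1 of 5, Vps16A with 245.2. The mitochondrial ATP synthase, a rotary relative of the pump, had 7 of 15, the strongest at ATPsynC, for its c ring, with 597.6. Its 4 genes with the suffix L, a split made after the values were seen, had 0, and the other 11 had 7.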

How the data were processed

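Chromatin immunoprecipitation was sequenced from 2 biological replicates of whole embryos, with sonicated fragments of 200 to 800 bp, per the labels. The authors deposited 4 narrowPeak lists on dm6, 1 per replicate, 1 pooled and 1 thresholded on the irreproducible discovery rate, whose 5744 peaks equal the 5744 strongest pooled peaks. Per the file descriptions, each was made with a control, which was not analysed here. For the aligner, the caller and the threshold, the sources used here give no name or value. The signal is the authors' deposited value per peak. The deposited −log10 q-value was capped at 4.09 for all 5744 peaks and was not used. The deposited summit offset placed each summit, moved to the peak's last base at 4 reproducible peaks. Depth is unknown, since the lists hold no read counts.

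Python 3.11.15 with pandas 2.3.3, numpy 2.4.6, scipy 1.17.1, biopython 1.88 and matplotlib 3.10.9 linked summits to 19607 TSSs of 13945 protein-coding genes (Ensembl release 115, 6 arms) within 1000 bp, and a gene's strongest peak gave its value. The linking was checked on simulated data. Replicate values at a reproducible peak of a Vha gene are those of the strongest overlapping peak (at least 1 bp). Otherwise, and at all genes of the other lists, they are the strongest within 1000 bp of a TSS. Sequence was read from the RefSeq copy of dm6, and protein identity came from global alignment of translated Ensembl coding sequences. Identity was measured against Vha68-2, Vha100-2 and VhaM9.7-b in those families rather than the first member.

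The rule named every Vha gene, all 4 assembly and control genes and the strongest gene of each other list. Mtor, CtsD and Vps41 matched no symbol and were left out. The members and lists were chosen with earlier results of these data known. Most promoters printed and the M-box words were chosen after values and sequences were seen. No comparison between conditions was possible, and no test over genes was made.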

Additional observations from a re-analysis of the deposited data

How the results depend on the processing

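The count of 11 Vha genes with a reproducible summit was 10 within 500 bp or for the nearest gene alone, which lost Vha14-1, and 7 among the strongest 50% of the list. Paralogues numbered 2 or higher numbered 2, but 4 within 2000 bp, with Vha36-3 and VhaPPA1-2 gained, and 1 among the strongest 50%. With the widely used set in place of the numbering, the others numbered 1 of 18. Leaving out a replicate gave 8 to 12 Vha genes in the reproducible list and 18 to 21 in the pooled list, 6 to 8 with no number or the number 1, and 2 to 2 numbered 2 or higher. Without replicate 1 the shares were 24.2% against 28.8% of all genes (reproducible) and 54.5% against 50.3% (pooled). Counting a peak as shared only where 50% of each overlapped lowered the peaks found in both replicates from 9 to 5. Within 250 bp of the summit, TATCGATA was at 2 genes and GGTCACACT at 1, CACGCG at 3 and CACNAG at 7. GAGAG was at 2 within 50 bp. The windows for the last 3 of these words were added after seeing the data. With a single TSS per gene, the most upstream, the M-box words were at 8 genes, and within 100 bp of any TSS at 11. The M-box alternatives were also added then. The remaining alternatives tried for these counts left them within 1.5 times their values. No paired analysis was possible because the samples form 1 group. Depth is unknown, so weak summits cannot be weighed.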

Other observations

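A pattern like that of Vha14-1, strong in replicate 1 and unlisted in replicate 3, was seen at Lamtor3, a gene of the complex that anchors nutrient sensing to the lysosome. Its replicate 1 summit, 107 bp upstream of a TSS, had a signal of 691.4 (rank 183), while neither the replicate 3 list nor the pooled list held a summit within 1000 bp. In other numbered families of the annotation, a comparison made after the values were seen, 10 of 25 genes with the final number 1 and 10 of 40 with 2 or higher had a reproducible summit. The corresponding Vha counts were 3 of 7 and 2 of 15.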
